A study of Mus musculus with 84 samples.

Results

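The enteric nervous system of the mouse colon was followed here through 8 genes, 5 of neurons (Uchl1, Elavl4, Ret, Nos1 and Vip) and 3 of glia (S100b, Sox10 and Gfap), taken by symbol from the 25494 rows of the RNA-seq table. The peaks of H3K27ac and H3K4me1 that overlapped each gene's locus, extended by 10 kb on both sides, were taken with them, and these merged into 15 of 70669 H3K27ac regions and 21 of 85476 H3K4me1 regions. The genes were chosen by name as markers of these cells after read counts of the same 12 libraries had been seen, so their levels and peaks are given as a description.

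RNA-seq was done on 12 libraries of colon epithelium, as the labels call it, from male C57BL/6 mice that were germ-free until they received bacteria, with 3 libraries in each of 4 groups. HFDHFB mice ate a high fat diet (HFD, 60% fat) and received bacteria from HFD-fed donors, and HFDLFB mice ate the same diet and received bacteria from donors on a low fat diet (LFD, 10% fat). LFDHFB and LFDLFB mice ate the LFD with bacteria from HFD-fed and LFD-fed donors, respectively. Recipients were bought at 5 weeks of age and given stool supernatant by oral gavage 4 times a week for 5 weeks. The same 4 groups had H3K27ac ChIP-seq, with 3 libraries each apart from 2 in HFDHFB. Conventionally raised male and female C57BL/6 mice kept on the HFD or LFD for 20 weeks gave 3 libraries per sex and diet for both H3K27ac, a mark of active promoters and enhancers, and H3K4me1, which also marks enhancers that are not active. HNF4α, an epithelial transcription factor, had 2 libraries per diet in males.

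Enteric neurons and glia derive from the neural crest and form ganglia between and beneath the muscle layers of the gut wall. Nitric oxide and the peptide VIP are the main inhibitory transmitters by which these neurons relax smooth muscle, VIP also drives secretion by the epithelium, and RET signalling is needed for their precursors to colonize the gut. None of the 8 genes is a marker of colonocytes. By the study's methods, RNA came from cells scraped off the colon, whereas chromatin came from epithelium shed by shaking in EDTA with the lamina propria removed, so the 2 readouts come from different preparations.

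Promoters of 3 genes are printed first because the chromatin data separate them. Uchl1 and S100b carried H3K4me1 at the transcription start site (TSS) in all 12 libraries, and Vip, shown as a contrast chosen after its values were seen, carried neither mark anywhere in its extended locus. Each sequence is the 200 bases just before the start of the locus on the gene's own strand, in mm9. Capitals mark CpG dinucleotides in Uchl1 and S100b, and in Vip they mark the letters TATAAA and TGACGTC, the cores of a TATA box and of a cAMP response element.
Uchl1, chr5:67067160-67067359, plus strand: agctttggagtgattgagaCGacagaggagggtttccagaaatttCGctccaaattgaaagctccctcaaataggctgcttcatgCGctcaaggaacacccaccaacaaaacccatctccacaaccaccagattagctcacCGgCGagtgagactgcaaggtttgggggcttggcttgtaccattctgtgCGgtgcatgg
S100b, chr10:75716381-75716580, plus strand: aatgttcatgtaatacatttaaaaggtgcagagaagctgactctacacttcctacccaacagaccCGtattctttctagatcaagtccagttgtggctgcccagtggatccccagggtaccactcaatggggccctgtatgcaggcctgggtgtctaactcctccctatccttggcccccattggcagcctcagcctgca
Vip, chr10:4707324-4707523, minus strand: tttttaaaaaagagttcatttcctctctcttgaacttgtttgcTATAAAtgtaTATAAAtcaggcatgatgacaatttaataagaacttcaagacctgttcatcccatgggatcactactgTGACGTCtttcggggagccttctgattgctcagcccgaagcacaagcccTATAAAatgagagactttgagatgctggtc

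Of the 3 sequences, Uchl1 held 6 CpG dinucleotides, Vip 3 and S100b 1. In a longer window of 300 bases, from 250 before to 50 after the start, the 8 genes had a median of 6.5 CpG, against 12 over the promoters of 24367 loci in the same table, and Elavl4 had the most with 23. TATAAA was searched on both strands in this window and occurred in 13.1% of all promoters, and TGACGTC occurred in 3.99%. Vip held 3 matches of the former and 1 of the latter, and no match of either was in the windows of the other genes. On both strands, ACAAAG (a SOX core, 17.3% of promoters) and CAGCTG (an E-box, 15.8%), and the RE1 element bound by a repressor of neuronal genes (0.0575%), had no match in the windows of the 8 genes. A match in these letters is a description of the window and not a binding site.

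All 8 genes were detected in all 12 RNA-seq libraries, whose totals ran from 39904191 to 48026846 counted reads. Levels are given as CPM, the counts per 1000000 counted reads of the library after TMM scaling of its total. The lowest count was 44 reads, for Sox10 in LFDHFB replicate 1 (95% Poisson interval 32.0 to 59.1, counting error only), and the highest was 3804, for Nos1 in LFDHFB replicate 3. Per length of annotated exons, Uchl1 had the highest mean level with 28.5 RPKM (CPM divided by exon length in kb) and Vip followed with 21.8. S100b had 4.14, Nos1 2.09, Ret 1.95, Gfap 1.33, Elavl4 1.30 and Sox10 1.20 RPKM. The ranges over libraries of neighbours in this order overlapped in every case, for example 10.2 to 69.9 for Uchl1, 10.2 to 42.6 for Vip and 1.04 to 11.1 for S100b.

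The levels of the neuronal genes had larger ratios between single libraries of 1 group than between group means. Values are CPM for replicates 1, 2 and 3. Nos1, the neuronal nitric oxide synthase, had 8.45, 30.0 and 24.4 CPM in HFDHFB, 21.8, 17.3 and 7.74 in HFDLFB, 9.52, 13.8 and 82.2 in LFDHFB, and 11, 36.0 and 9.65 in LFDLFB. LFDHFB replicate 3 was thus 8.63 times as high as the lowest library of its own group. The largest ratio between group means was 2.26, and all groups overlapped. Means of 3 libraries vary less than single libraries, so these ratios are not a test of the groups. Vip, the precursor of the relaxing peptide, had 20, 63.3 and 49.3 CPM in HFDHFB, 26.8, 31.5 and 15.6 in HFDLFB, 27.4, 26.6 and 65.1 in LFDHFB, and 19.8, 37.4 and 17.2 in LFDLFB. Its spread was the smallest of the 8 genes, with a ratio of 4.18 between the highest and the lowest library.

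Uchl1, a deubiquitinating enzyme abundant in neurons, had 11.7, 46.2 and 49.4 CPM in HFDHFB, 50, 20.9 and 12.7 in HFDLFB, 18.7, 18 and 80.1 in LFDHFB, and 15.2, 52.8 and 16.0 in LFDLFB. Each group held at least 1 library above 49 and 1 below 19 CPM. Ret, the receptor tyrosine kinase for ligands of the GDNF family, had 6.21, 18.5 and 15 CPM in HFDHFB, 12.9, 12.7 and 6.61 in HFDLFB, 7.70, 9.08 and 46.0 in LFDHFB, and 6.78, 24.3 and 6.47 in LFDLFB. Elavl4, an RNA-binding protein of neurons, had 3.01, 7.51 and 7.48 CPM in HFDHFB, 7.16, 5.42 and 2.73 in HFDLFB, 4.49, 3.86 and 25.6 in LFDHFB, and 2.61, 11.3 and 2.77 in LFDLFB. All 5 neuronal genes were highest in LFDHFB replicate 3.

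The glial genes varied as widely but had their highest values elsewhere. S100b, a calcium-binding protein of glia, had 2.23, 6.33 and 12.3 CPM in HFDHFB, 16.4, 7.42 and 3.33 in HFDLFB, 2.25, 2.56 and 10.6 in LFDHFB, and 1.54, 6.82 and 1.85 in LFDLFB. Sox10, the transcription factor that neural crest cells and glia share, had 1.06, 4.80 and 4.52 CPM in HFDHFB, 7.74, 1.60 and 1.56 in HFDLFB, 0.979, 1.76 and 6.48 in LFDHFB, and 1.89, 4.79 and 2.01 in LFDLFB. Both were highest in HFDLFB replicate 1. Gfap, the intermediate filament of glia, had 3.06, 15 and 8.89 CPM in HFDHFB, 11.7, 1.45 and 1.17 in HFDLFB, 1.38, 1.35 and 12 in LFDHFB, and 1.22, 8.55 and 1.62 in LFDLFB. It was highest in HFDHFB replicate 2 and had the widest range of the 8 genes, with a ratio of 12.8 between the highest and the lowest library.

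**Figure D1:**
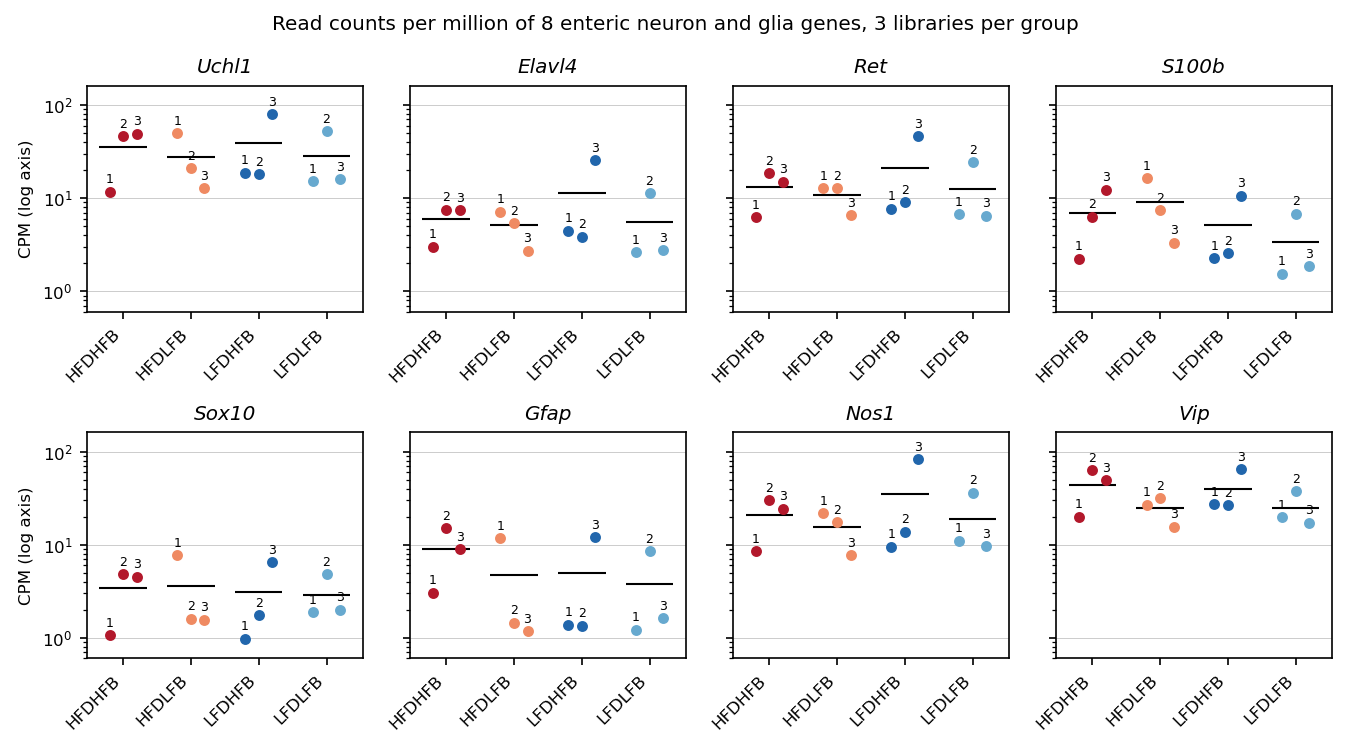
CPM (log axis) of the 8 genes in the 4 groups of recipients, with 1 numbered point per library (replicates 1 to 3) and a line at each group's mean. Within each group the same libraries are high for most genes, and the groups overlap for every gene.

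The order of the libraries was shared. LFDHFB replicate 3, LFDLFB replicate 2 and HFDHFB replicate 3 were among the 5 highest libraries for 8 of 8 genes, and HFDHFB replicate 2 and HFDLFB replicate 1 for 7 of 8. HFDHFB replicate 1 and HFDLFB replicate 3 were the lowest library of their group for all 8 genes. Spread within groups made up 72.7% (Vip) to 98.3% (Sox10) of the variance of log2 CPM, beside a median of 75.7% over the 15893 genes tested. The median ratio between the highest and the lowest library was 8.86 for the 8 genes and 1.94 over the 15607 tested genes with no count of 0. In bulk RNA, fewer cells of a type and less RNA per cell cannot be told apart.

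Over the 12 libraries, Pearson's r of log2 CPM was 0.86 to 0.99 for the 10 pairs of neuronal genes, 0.79 to 0.88 for the 3 pairs of glial genes and 0.67 to 0.92 for the 15 pairs of a neuronal with a glial gene. These values describe points that share library and depth and carry no test. Among 15892 other tested genes, those most like Nos1 were Zcchc18 (r = 0.991), Ret (r = 0.989) and Pirt (r = 0.988). Those most like Uchl1 were Gng3 (r = 0.990), Prph (r = 0.990), a neuronal intermediate filament, and Nap1l5 (r = 0.989). Elavl4 was most like Serpini1 (r = 0.992), Ahi1 (r = 0.988) and Tac1 (r = 0.983), the precursor of substance P. Ret was most like Ppp2r2c (r = 0.990), Nos1 and Zcchc18 (r = 0.985), and Vip was most like Htr3a (r = 0.965), a serotonin receptor subunit, Adra2c (r = 0.962) and Wdr6 (r = 0.939). For glia, S100b was most like Hmgn3 (r = 0.963), Ccdc92 (r = 0.961) and Gdf11 (r = 0.957), Sox10 most like Pdzd4 (r = 0.970), Gpr37l1 (r = 0.970), a receptor of glia, and Samd14 (r = 0.964), and Gfap most like Mfap2 (r = 0.978), Vat1 (r = 0.965) and Ror2 (r = 0.960).

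The ratio of the 3 glial to the 5 neuronal genes also differed between libraries. The summed glial level per length was 0.103, 0.109 and 0.149 of the summed neuronal level in HFDHFB and 0.252, 0.137 and 0.132 in HFDLFB. It was 0.0595, 0.0740 and 0.0945 in LFDHFB and 0.0705, 0.106 and 0.0862 in LFDLFB. The highest ratio was in HFDLFB replicate 1, and the HFD-fed and LFD-fed libraries overlapped between 0.103 and 0.106. The sums rest mostly on S100b (mean 4.14 RPKM) and on Uchl1 and Vip (28.5 and 21.8 RPKM). In HFDLFB replicate 1, S100b alone had 11.1 of the 16.7 glial RPKM. The ratio is therefore one of these genes and does not give proportions of cells.

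The first comparison asked whether bacteria of HFD-fed donors changed expression in recipients on the HFD. Vip had 44.2 ± 22.1 CPM (SD, n = 3) in HFDHFB and 24.6 ± 8.20 CPM (SD, n = 3) in HFDLFB, a fitted log2 fold change of 0.84 ± 0.49 (SE) with a 95% interval from -0.22 to 1.91. This did not pass the test (edgeR quasi-likelihood, Benjamini-Hochberg adjusted p = 0.632). Gfap had a log2 fold change of 0.91 ± 1.14 (SE), which was 2.78 without HFDLFB replicate 1 and 0.31 without HFDHFB replicate 2. S100b, in the other direction, had -0.38 ± 0.84 (SE), which was 0.37 without HFDLFB replicate 1. Of the 8 genes, 6 had positive and 2 negative values with a median of 0.33, beside -0.002 over all genes tested. Of the 8 genes 0 passed an adjusted p of 0.05 in edgeR, as did 0% of the 15893 genes tested, and 0 of 8 passed in DESeq2, beside 0.487% of all genes. At an unadjusted p under 0.05 in edgeR the counts were 0 of 8 genes and 9.07% of all, and at 0.001, the threshold of the study's methods, 0 of 8 and 0.0881%. No gene had groups without overlap, as 13.0% of all tested genes had.

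On the LFD, bacteria of HFD-fed donors went with higher values of all 8 genes, but none passed the test and the direction rested on 1 library. Elavl4 had 11.3 ± 12.4 CPM (SD, n = 3) in LFDHFB and 5.55 ± 4.96 CPM (SD, n = 3) in LFDLFB, a log2 fold change of 1.03 ± 0.79 (SE). Nos1 had 0.90 ± 0.82 (SE), Ret 0.74 ± 0.73 (SE) and Vip 0.68 ± 0.48 (SE) on the same log2 scale, with a median of 0.64 over the 8 genes and 0.022 over all genes. The edgeR adjusted p was 0.975 to 0.995 for the 8 genes. Of these 0 were called, beside 0% of 15893 genes, 0 of 8 had an unadjusted p under 0.05, beside 3.72% of all (0.00629% at 0.001), and DESeq2 called 0 of 8 and 0% of all genes. Groups did not overlap for 0 of 8 genes and 10.8% of all. Without LFDHFB replicate 3, 7 of the 8 log2 fold changes were negative, from -1.48 for Gfap to -0.41 for Elavl4, with Vip at 0.12 and the median at -0.59 (edgeR, smallest adjusted p = 1.0). LFDHFB replicate 3 also stood furthest from its group over all genes, with a chi-square per degree of freedom of 368 and 372 against replicates 1 and 2, where the other pairs of replicates had 41.7 to 154.

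The difference between these 2 comparisons was tested as the interaction of diet and bacteria. S100b had the lowest interaction value, a log2 difference of -0.98 ± 1.19 (SE), and Gfap had the highest with 0.54 ± 1.60 (SE). The edgeR adjusted p was 0.792 to 0.980 for the 8 genes, so that 0 of 8 and 0% of all genes were called, and DESeq2 called 0 of 8 and 0.208% of all genes. An unadjusted p under 0.05 was found for 0 of 8 and for 11.3% of all genes, and under 0.001 for 0 of 8 and 0.12%. The 95% interval for Nos1 ran from -3.0 to 2.06 on the log2 scale, so that differences of 4-fold in either direction were inside it. Without LFDHFB replicate 3 all 8 interaction values were positive, with a median of 0.93 in place of -0.30 (edgeR, smallest adjusted p = 0.644).

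The diets were compared within each donor. With bacteria of HFD-fed donors, Elavl4 had a log2 fold change of -0.91 ± 0.79 (SE) in HFDHFB against LFDHFB and Gfap had 0.87 ± 1.14 (SE). Of the 8 genes 4 were higher and 4 lower, with a median of 0.02 beside -0.034 over all genes, and 0 of 8 passed (edgeR adjusted p 0.858 to 0.984) beside 0% of all genes in edgeR and 0.850% in DESeq2. The unadjusted p was under 0.05 for 0 of 8 and 7.46% of all (under 0.001 for 0 of 8 and 0.277%). Groups did not overlap for 0 of 8 and 11% of all. Without LFDHFB replicate 3 all 8 values were positive, up to 2.72 ± 1.21 (SE) for Gfap, with a median of 0.90 (edgeR, smallest adjusted p = 0.566).

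With bacteria of LFD-fed donors, S100b had 9.06 ± 6.71 CPM (SD, n = 3) in HFDLFB and 3.4 ± 2.96 CPM (SD, n = 3) in LFDLFB. Its log2 fold change of 1.41 ± 0.86 (SE) had a 95% interval from -0.48 to 3.30 and did not pass the test (edgeR adjusted p = 0.881). It was 2.42 without LFDLFB replicate 2 and 0.66 without HFDLFB replicate 1. Vip had 24.6 ± 8.20 and 24.8 ± 11 CPM (SD, n = 3 each), a log2 fold change of -0.01 with an interval from -1.08 to 1.05. Over the 8 genes 3 values were positive and 5 negative with a median of -0.01, beside 0.004 over all genes. Of the 8 genes 0 were called, beside 0% of all genes in edgeR and 0.0524% in DESeq2, 0 of 8 had an unadjusted p under 0.05 beside 5.33% of all (0.0566% at 0.001), and groups did not overlap for 0 of 8 and 11.7% of all. The comparisons share groups and are not independent of each other.

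**Figure D2:**
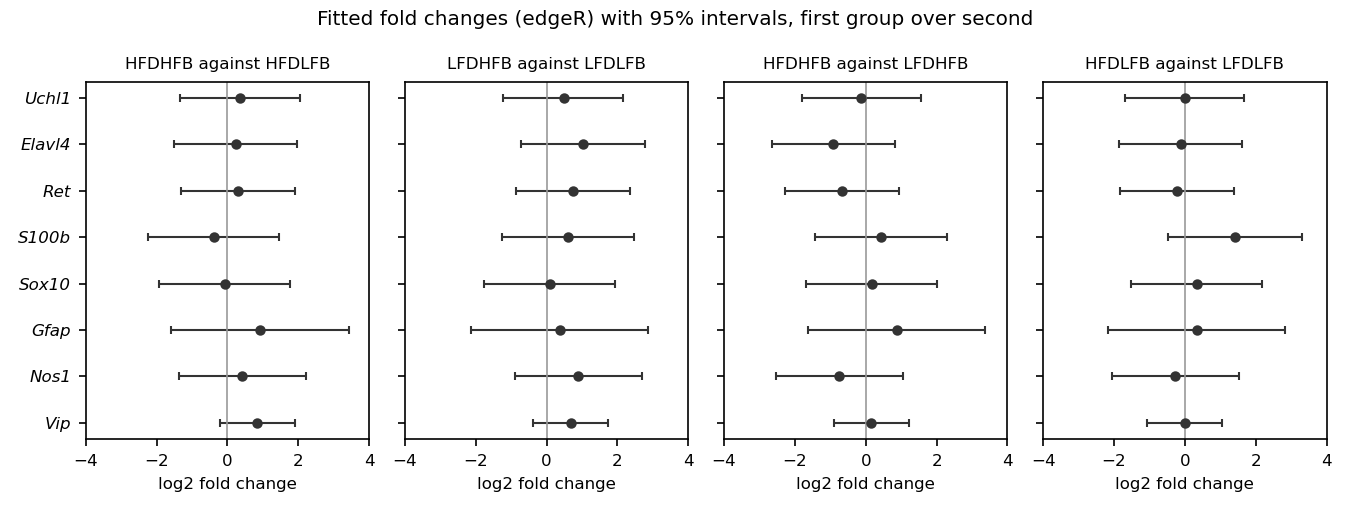
Log2 fold changes of the 8 genes fitted with edgeR in the 4 pairwise comparisons (x axis, first group over second), with bars for 95% intervals and a line at 0. Every interval spans 0, the narrowest being those of Vip.

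Other genes of the enteric nervous system were read from lists. None of the 20 pan-neuronal, 15 tested transmitter or 16 glial genes passed an adjusted p of 0.05 in edgeR in any of the 5 comparisons, in either direction, as 0% of the 15893 genes tested did, so these counts are those of the background. In HFDHFB against HFDLFB the median log2 fold change was 0.34 for the pan-neuronal list, 0.28 for the transmitter list and -0.10 for the glial list. The pan-neuronal list, led by the adhesion molecule L1cam (mean 58.9 CPM) and the microtubule regulator Stmn2 (31.1 CPM), summed to 132 CPM in HFDLFB replicate 3 and 602 CPM in LFDHFB replicate 3. The transmitter list, led by Tac1 (25.2 CPM) and the enkephalin precursor Penk (24.4 CPM), ran from 37.5 CPM in LFDLFB replicate 1 to 326 CPM in LFDHFB replicate 3. Both had their highest library within HFDLFB, LFDHFB and LFDLFB in the same replicate as the 8 genes. The glial list did not, and its sum of 1001 to 1519 CPM was mostly that of Pmp22 (674 CPM) and Erbb3 (383 CPM), which had H3K27ac at the TSS in all 23 libraries.

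Ligands, co-receptors and partners of RET and endothelin signalling were not called either, with 0 of 11 tested genes past the adjusted p in any comparison, beside 0% of all genes. The list was led by Ece1, which processes endothelins, with 83.9 to 138 CPM, and by the transcription factor Zeb2 with 6.65 to 31.8 CPM. Gdnf, the RET ligand, and Gfra1, its co-receptor, were named after their values were seen and ran from 0.161 to 3.46 CPM and from 4.63 to 33.2 CPM. Receptors and effectors of VIP and nitric oxide gave 0 of 8 called genes, beside 0% of all. Vipr1, the VIP receptor of epithelium, was lowest in HFDLFB replicate 1 and LFDHFB replicate 3 (172 and 188 CPM) and highest in LFDHFB replicate 2 (404 CPM). Pde5a, which breaks down the messenger of nitric oxide, was highest in LFDHFB replicate 3 with 168 CPM.

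Of the marker lists of other cells, those of smooth muscle and of enteroendocrine cells had high sums in the same libraries as the 8 genes. The smooth muscle list, led by Tagln (1004 CPM) and Acta2 (580 CPM), summed to 1981, 4973 and 7103 CPM in HFDHFB, 4975, 2304 and 1109 in HFDLFB, 2380, 2104 and 5406 in LFDHFB, and 2705, 4644 and 2251 in LFDLFB. The 8 genes summed to 55.8, 192 and 171 CPM, 154, 98.3 and 51.4 CPM, 72.4, 77.0 and 328 CPM, and 60.1, 182 and 57.7 CPM in the same order. HFDHFB replicates 2 and 3, HFDLFB replicate 1, LFDHFB replicate 3 and LFDLFB replicate 2 held the 5 highest sums of both. The 5 highest sums of the enteroendocrine list, from 651 to 1445 CPM, were in the same libraries. With the smooth muscle level as a covariate, an analysis added after the data were seen, 0 of 8 genes passed in any comparison. In HFDHFB against HFDLFB the values of Uchl1, Elavl4, Ret and Nos1 then turned negative (-0.47, -0.53, -0.50 and -0.46), S100b had -1.27 ± 0.34 (SE, edgeR adjusted p = 0.123) and Vip 0.26 ± 0.30 (SE, edgeR adjusted p = 0.686). S100b in HFDLFB against LFDLFB was 1.70 ± 0.33 (SE) on the log2 scale (edgeR adjusted p = 0.254).

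The epithelium list, led by Krt8 (4715 CPM) and Epcam (1955 CPM), spanned 9943 to 14928 CPM, a ratio of 1.5. The enteroendocrine list, led by Chgb (222 CPM) and Chga (116 CPM), ran from 293 CPM to 1445 CPM in LFDHFB replicate 3. Both leading genes were highest in this library. Not all genes of the list followed, as Pyy and Insl5 were lowest there with 50.2 and 9.94 CPM. Kit and Ano1, which mark interstitial cells of Cajal, went apart in LFDHFB replicate 3. Ano1 was at its lowest there with 51.7 CPM, and Kit and Etv1 of the same list at their highest with 52.3 and 13.8 CPM. Kit and Ano1 both had H3K27ac at the TSS in all 23 libraries of that mark. The fibroblast list (Dcn 381 CPM, Col3a1 165 CPM) ran from 397 to 1673 CPM and the endothelium list (Pecam1 22.5 CPM, Kdr 6.47 CPM) from 31.8 to 93.8 CPM, both highest in HFDLFB replicate 1. The leukocyte list (Lyz2 197 CPM, Csf1r 18.9 CPM) ran from 151 to 402 CPM, the mesothelium list (Krt19 2888 CPM, which is also epithelial, and Upk3b 55.5 CPM) from 1747 to 3447 CPM, and the adipocyte list (Fabp4 237 CPM, Cfd 87.9 CPM) from 32.2 to 2955 CPM with its highest value in HFDLFB replicate 2. The adipocyte and mesothelium lists had larger median differences than the other lists in both comparisons with HFDLFB. In HFDHFB against HFDLFB, 6 of 8 adipocyte genes (median log2 fold change -3.08) and 6 of 7 mesothelium genes (median -1.96) had an unadjusted p under 0.05 in edgeR, beside 9.07% of all genes. In HFDLFB against LFDLFB these counts were 7 of 8 (median 3.29) and 6 of 7 (median 1.54), beside 5.33% of all. No gene of these lists was called in any comparison (edgeR), beside 0% of all genes, and the part of these cells in the levels of the 8 genes was not tested beyond the smooth muscle covariate.

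**Figure D3:**
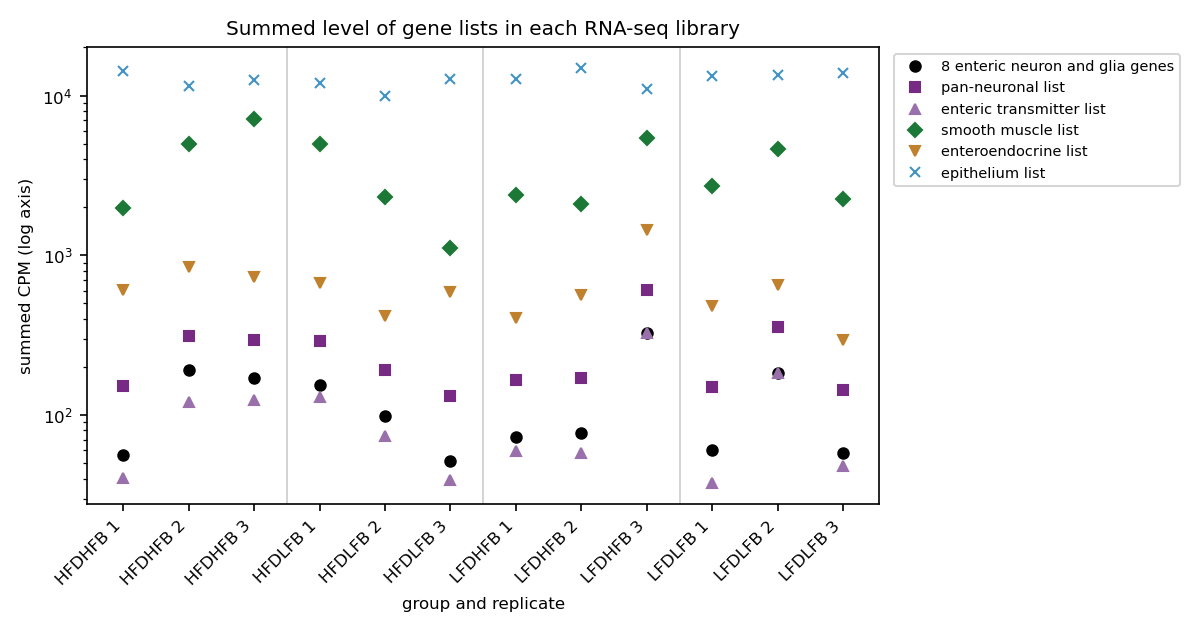
Summed CPM (log axis) of the 8 genes and of 5 marker lists in each of the 12 RNA-seq libraries. In HFDLFB, LFDHFB and LFDLFB the pan-neuronal, transmitter and smooth muscle sums are highest in the same replicate as the sum of the 8 genes. The enteroendocrine sum is highest in that replicate in every group. The epithelium sum stays between 9943 and 14928 throughout.

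In chromatin, H3K27ac was nearly absent from the start sites of the 8 genes. Within 1 kb of an annotated TSS, Ret had a peak in 3 of 23 libraries (1 each of HFD males, HFD females and HFDLFB), S100b in 2 of 23 (1 each of HFDHFB and HFDLFB), and the other 6 genes in 0 of 23. With a peak in at least 2 libraries of a group required, 0 of 8 genes had H3K27ac at the TSS in each of the 8 groups, where 52.5% to 55.3% of 22219 protein-coding genes had it. Over all libraries, 48.0% of protein-coding genes had such a peak in all 23 and 38.5% in none. Among 5532 genes with a mean level inside the range of the 8 genes (3.26 to 33.3 CPM), 71.9% had the peak in all 23 libraries and 10.3% in none. All 10 genes of the epithelium list had it in all 23 libraries. Of other neural lists, 1 of 19 pan-neuronal genes (L1cam) and 0 of 15 transmitter genes did.

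H3K4me1 was more frequent at the same start sites. Uchl1, Ret and S100b had a peak in 12 of 12 libraries, Elavl4 in 9 and Sox10 in 7. Gfap, Nos1 and Vip had none in 12 at the start of a protein-coding transcript. By group, 5 of 8 genes had it in at least 2 of 3 libraries in HFD males, HFD females and LFD females and 4 of 8 in LFD males, where Sox10 had it in 1. The share over protein-coding genes was 64.3% to 65.1% by group. Over all libraries, 55.5% of protein-coding genes had such a peak in all 12 and 30.2% in none. Among the 5532 genes with a mean level inside the range of the 8 genes, these shares were 78.8% and 6%. For the 8 genes they were 37.5% and 37.5%. At the TSS the diets differed by 1 library for Sox10 in males (2 of 3 HFD and 1 of 3 LFD) and for Elavl4 in females (3 of 3 HFD and 2 of 3 LFD), and the other 6 genes had the same count on both diets in each sex.

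**Figure D4:**
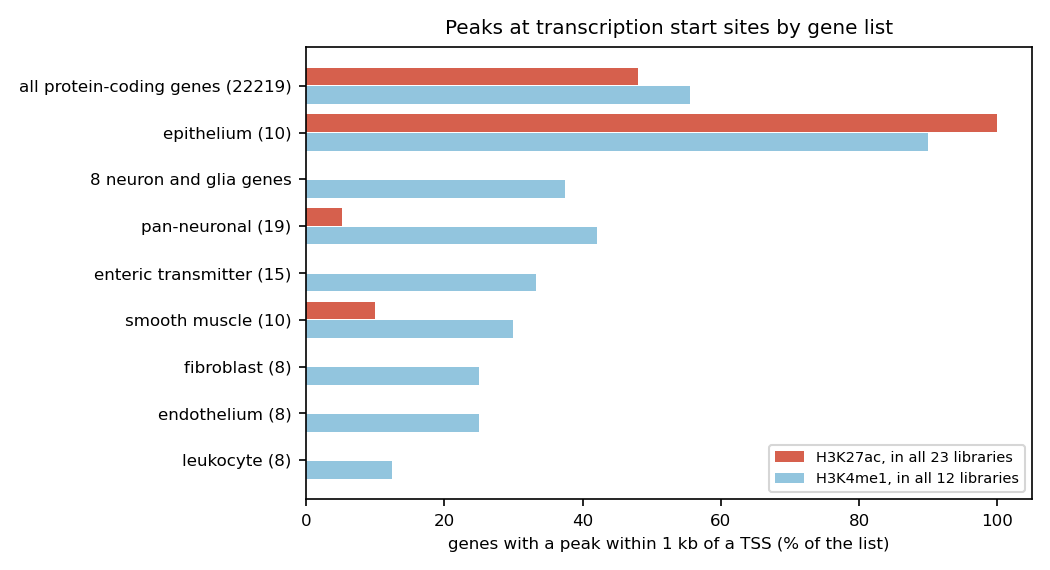
Share of each list's genes (x axis, %) with a peak within 1 kb of a TSS in every library of H3K27ac or H3K4me1, with the number of genes in parentheses. The 8 neuron and glia genes have 0% for H3K27ac and 37.5% for H3K4me1, against 100% and 90.0% for the epithelium list.

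Away from the start sites, S100b carried a region found in every library of both marks. Gfap carried one whose H3K27ac varied between libraries, also within groups. In S100b, on chromosome 10 (mm9, plus strand, 75716581 to 75724064), a region of 2800 bp at 75719601 to 75722400 had H3K27ac in 23 of 23 and H3K4me1 in 12 of 12 libraries, and 2654 bp of it were intronic. A second region at 75723001 to 75725800 covered the last exon and sequence downstream and had H3K27ac in 20 of 23 libraries. In Gfap, on chromosome 11 (minus strand, 102748650 to 102758514), a region at 102753801 to 102755400 with 1253 intronic and 347 exonic bp had H3K27ac in 16 of 23 libraries, namely 1, 2, 3 and 2 of 3 in HFD males, LFD males, HFD females and LFD females, 2 of 2 in HFDHFB, and 3, 2 and 1 of 3 in HFDLFB, LFDHFB and LFDLFB. H3K4me1 was found there in 12 of 12.

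The H3K27ac regions found in every library near Sox10 and Gfap lay over other genes. In the extended locus of Sox10 (chromosome 15, minus strand, 78985343 to 78994920), the region with H3K27ac in 23 of 23 libraries held the start sites of Polr2f and 1700088E04Rik, 16320 bp from the start of Sox10. The H3K27ac region in 23 of 23 libraries in the extended locus of Gfap held the start sites of Ccdc103 and Eftud2. HNF4α peaks coincided with these regions, in both LFD lists and 0 of 2 HFD lists at the former, and in both HFD lists and 0 of 2 LFD lists at the latter. With 2 lists per diet this has no test. Ret and Nos1 each held a peak in 1 of 4 lists, and no HNF4α peak lay at a start site of the 8 genes. Regions upstream of the loci of Sox10 and Gfap, with no start site of a protein-coding transcript, carried H3K4me1 in 12 of 12 libraries. The one of Sox10, at 78998801 to 79000800, had H3K27ac in 2 of 23 libraries. The one of Gfap, at 102761201 to 102763000, had it in 1 of 23. This region of Gfap held the 5' end of the gene as annotated in GENCODE, at 102762226, with 146 exonic and 880 intronic bp.

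All neuronal loci except that of Vip carried H3K4me1, without constant H3K27ac. Ret (chromosome 6, minus strand, 118101766 to 118147762) had an H3K4me1 region of 11800 bp over its start in 12 of 12 libraries, of which 8878 bp were intronic, and further intragenic regions in 11 and 10 of 12. Its H3K27ac regions were present in 3, 1 and 1 of 23 libraries. Uchl1 (chromosome 5, plus strand, 67067360 to 67078473) had only the H3K4me1 region of 3200 bp at its start, and Elavl4 (chromosome 4, minus strand, 109876342 to 110024516) had the region at its start and another in 1 of 12 libraries at an internal start. Nos1 (chromosome 5, plus strand, 118316848 to 118408849) had H3K4me1 over its last exon in 12 of 12 libraries and intragenic H3K4me1 in 7 and 4 of 12. Vip (chromosome 10, minus strand, 4698925 to 4707323), which had the second highest RNA level per length, had 0 regions of either mark in its extended locus. Since the peak lists hold positions alone and their depth is unknown, absence of a peak means that none was called.

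**Figure D5:**
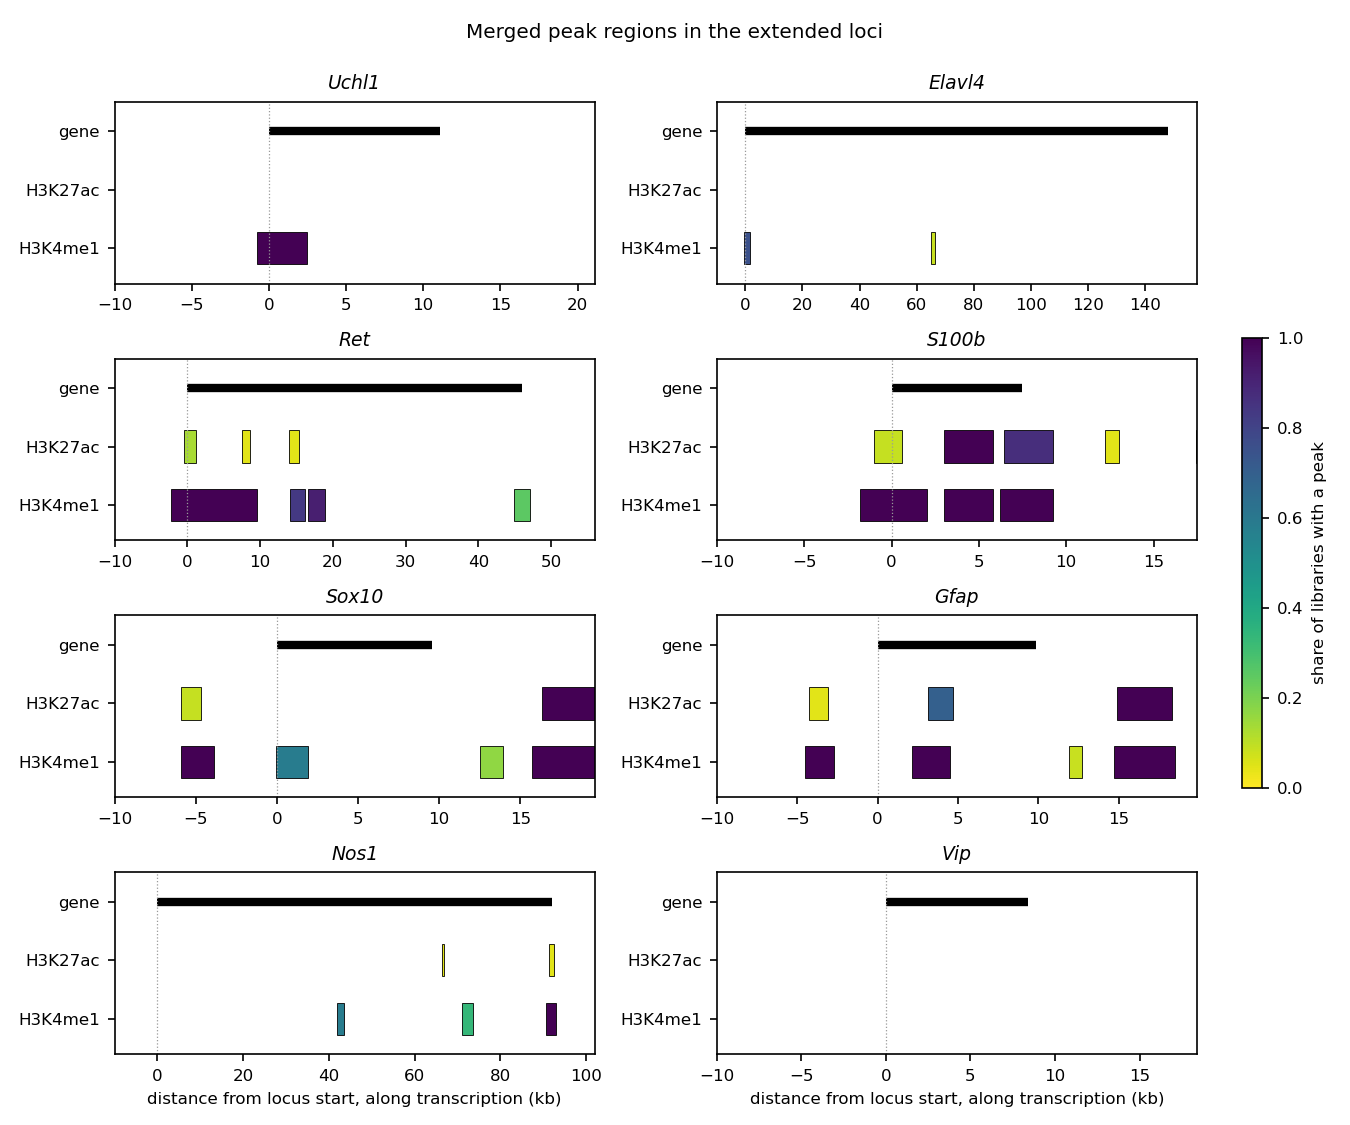
Merged H3K27ac and H3K4me1 regions in the extended locus of each gene, against the distance in kb from the start of the locus along transcription, with the gene as a black bar and colour for the share of libraries with a peak (23 for H3K27ac, 12 for H3K4me1). Regions that cross the end of the window are drawn up to it. Uchl1 and Elavl4 show H3K4me1 only, and Vip shows no region.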

How the data were processed

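The authors aligned RNA-seq reads to mm9 with STAR 2.5 and deposited raw read counts per gene from featureCounts 1.5.0-p1. Strand use in counting is not given in the sources used here. For ChIP-seq, reads were aligned with Bowtie 0.12.8 and de-duplicated with Picard 1.110 (submitters' processing notes), and the authors deposited 1 peak list per library, from SICER for histone marks and HOMER for HNF4α, with positions and no score or depth. Counts were tested in R 4.3.3 with edgeR 4.0.16 (TMM, filterByExpr, quasi-likelihood F-tests, 4 groups in 1 fit, Benjamini-Hochberg adjustment over 15893 genes, calls at 0.05), with DESeq2 1.42.0 as an alternative. Log2 CPM used a prior count of 2. Every fold change is a fitted ratio of counts. The labels do not say whether replicates came from separate animals, and p-values then measure the spread between these samples. Peaks overlapping by 1 bp were merged, and start sites were those of protein-coding transcripts in GENCODE vM1. Exon lengths were the union of annotated exons. The steps were tested on simulated data, where edgeR recovered 30 of 82 genes changed 2-fold and 48 of 59 changed 4-fold in HFDHFB against HFDLFB. The changed genes were drawn from all tested genes, most of which varied less than the 8, so these counts do not give the recovery for the 8 genes. The 8 genes and all lists were chosen with earlier results of these data known. Outside the 8, list genes were named if called, otherwise the 2 of highest mean level, and the 3 genes most like each by Pearson's r were named. Python 3.11.15 with pandas 2.3.3 and matplotlib 3.10.9 was used. A promoter sequence and a gene of the glial list are not reported here.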

Additional observations from a re-analysis of the deposited data

How the results depend on the processing

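Counts of called genes depended on the test and threshold. Where edgeR called 0 genes at an adjusted p of 0.05, DESeq2 called 80 in HFDHFB against HFDLFB, 35 for the interaction, 114 in HFDHFB against LFDHFB and 9 in HFDLFB against LFDLFB, and an unadjusted p under 0.001 in edgeR gave 14, 19, 44 and 9, with 1 in LFDHFB against LFDLFB. None of these was among the 8 genes. The cause was not tested. With DESeq2 size factors, without the filter, with only the groups compared, with the replicate block, with the smooth muscle covariate and with each library left out, edgeR called 0 genes.

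Over 712 refits of the 40 fold changes of the 8 genes, none passed (smallest adjusted p = 0.123, edgeR), 622 kept their direction and 90 turned it. The replicate numbers did not pair the libraries (correlation of same-numbered deviations -0.591 to 0.451, 1 of 12 libraries most like its own number). With the replicate block the log2 values that turned were, in HFDHFB against HFDLFB Elavl4 -0.03, and, in LFDHFB against LFDLFB Sox10 -0.05, and, in HFDLFB against LFDLFB Uchl1 0.25, Elavl4 0.15, Ret 0.02 and Vip 0.05. With the smooth muscle covariate the log2 values that turned were, in HFDHFB against HFDLFB Uchl1 -0.47, Elavl4 -0.53, Ret -0.50 and Nos1 -0.46, and, in LFDHFB against LFDLFB Sox10 -0.20 and Gfap -0.02, and, for the interaction Vip -0.34, and, in HFDHFB against LFDHFB Sox10 -0.18 and Vip -0.10, and, in HFDLFB against LFDLFB Uchl1 0.29, Elavl4 0.33, Ret 0.26, Nos1 0.19 and Vip 0.24. Uchl1 in HFDLFB against LFDLFB, at -0.01, was 0.00 with DESeq2 size factors, in DESeq2 and without the filter. Each of the 12 libraries turned at least 1 value when left out, and LFDHFB replicate 3 turned the most, 17. Among fits without 1 library, log2 values in HFDHFB against HFDLFB ran from -0.06 to 0.56 for Elavl4, -0.01 to 0.64 for Ret, -1.13 to 0.37 for S100b and -0.43 to 1.13 for Sox10. Those in LFDHFB against LFDLFB ran from -0.61 to 1.32 for Uchl1, -0.41 to 2.08 for Elavl4, -0.58 to 1.66 for Ret, -0.50 to 1.60 for S100b, -1.08 to 0.66 for Sox10, -1.48 to 1.79 for Gfap and -0.70 to 1.77 for Nos1. Those for the interaction ran from -0.95 to 0.97 for Uchl1, -1.83 to 0.64 for Elavl4, -1.34 to 0.88 for Ret, -1.98 to 0.12 for S100b, -0.72 to 1.04 for Sox10, -0.87 to 2.41 for Gfap, -1.33 to 1.12 for Nos1 and -0.23 to 0.72 for Vip. Those in HFDHFB against LFDHFB ran from -0.52 to 0.96 for Uchl1, -1.38 to 0.52 for Elavl4, -1.07 to 0.66 for Ret, -0.31 to 1.53 for S100b, -0.25 to 1.34 for Sox10, -1.20 to 0.84 for Nos1 and -0.19 to 0.71 for Vip. Those in HFDLFB against LFDLFB ran from -0.74 to 0.84 for Uchl1, -0.45 to 0.93 for Elavl4, -0.51 to 0.70 for Ret, -0.87 to 0.91 for Sox10, -1.53 to 1.77 for Gfap, -0.59 to 0.60 for Nos1 and -0.23 to 0.41 for Vip. The other 7 values kept their direction, with 0.31 to 2.78 for Gfap, 0.07 to 0.80 for Nos1, 0.01 to 1.09 for Uchl1 and 0.50 to 1.19 for Vip in HFDHFB against HFDLFB, 0.12 to 1.10 for Vip in LFDHFB against LFDLFB, 0.28 to 2.72 for Gfap in HFDHFB against LFDHFB, and 0.66 to 2.42 for S100b in HFDLFB against LFDLFB.

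Genes with H3K27ac at the start site went from 0 to 2 with a window of 5000 bp or with a peak in any library. H3K27ac regions numbered 9 without extension of the locus, 32 with 50 kb and 8 with a peak in at least 2 libraries, and H3K4me1 regions numbered 40 with 50 kb. Peak lists carry no depth, and 3 libraries per group limit the intervals of the fold changes.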
